A study of Mus musculus with 232 samples.

Results

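The 9 genes described here sense RNA, pass the signal on, or answer to interferon. They were listed by name, and the rule used no measured value, although earlier results of these data were known. Ddx58 (RIG-I), Ifih1 (MDA5) and Tlr3 are sensors of double-stranded RNA, Mavs and Irf3 carry the signal, Eif2ak2 (PKR) and Adar act on double-stranded RNA, and Isg15 and Ifit1 are induced by interferon. Each was found once, by its gene identifier, among the 42493 genes of the deposited files. Of the 9, the 5 genes Ddx58, Mavs, Irf3, Eif2ak2 and Adar had a mean count of at least 5 per cell over all cells, as 11178 genes did. The other 4, Ifih1, Tlr3, Isg15 and Ifit1, did not pass this filter, and their counts are given without being entered in the tallies of 2-fold differences.

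The cells were mouse embryonic stem cells (ESCs), captured singly on a Fluidigm C1 microfluidic circuit and sequenced one by one. The wild-type (WT) cells, titled V6.5, had an intact Dgcr8 and so the miRNAs of normal ESCs, and 16 were analysed. The other 3 groups were all Dgcr8-/-, that is, without the protein that the Microprocessor needs to cut most primary miRNAs. Of these, 60 cells were mock-transfected, 57 received a mimic of miR-294, a miRNA of the family most abundant in ESCs, and 45 received a mimic of let-7, a miRNA of differentiated cells. Most miR-294 cells were titled miRNA294_ and a few MIR_294_. Cells were captured 24 h after transfection with Dharmafect 1, and all had been grown in LIF and the 2 inhibitors PD0325901 and CHIR99021 (2i), which hold ESCs in the naive pluripotent state. The series text says that WT cells too were mock-transfected or given mimics, and the labels of the single WT cells do not say which. The mimic is named let-7i in the titles, let-7b in the series text and let-7c in the study's methods, and is called let-7 here.

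Double-stranded RNA in the cytoplasm is bound by the helicases RIG-I and MDA5, which then engage the adaptor MAVS on the mitochondrial surface. MAVS activates the kinases TBK1 and IKK-epsilon, which phosphorylate IRF3, and IRF3 turns on the gene for interferon beta. TLR3 does the same from the endosome through another adaptor, TRIF (Ticam1). Interferon acts through the receptor kinases JAK1 and TYK2 and the factor IRF9 on genes that carry an interferon-stimulated response element, ISG15 and IFIT1 among them. PKR, once bound to double-stranded RNA, phosphorylates the initiation factor eIF2 and lowers translation, and ADAR edits adenosine to inosine in such RNA, which keeps a cell's own transcripts from being taken for foreign ones. Pluripotent stem cells are known to make little interferon in response to double-stranded RNA.

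The mature miRNAs are printed because the seed, bases 2 to 8, sets which transcripts a miRNA can pair with. They were taken from RefSeq (GRCm38.p6), 5′ to 3′, with the seed in capitals.
miR-294: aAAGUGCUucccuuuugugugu
let-7b: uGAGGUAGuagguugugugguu
let-7c: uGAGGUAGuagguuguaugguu
let-7i: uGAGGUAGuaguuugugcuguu
The 3 let-7 miRNAs share 1 seed, so the uncertain name of the mimic does not alter which letters were searched for. Letters complementary to the seed of miR-294 (AGCACTT) were looked for on the sense strand of the longest annotated 3′UTR of each of the 9 genes (GRCm38) and were found in 2 of them, with the match in capitals here.
Eif2ak2, chr17:78852756-78852778, minus strand: cttctcaaAGCACTTtggacctt
Tlr3, chr8:45396929-45396951, minus strand: ttgcaagtAGCACTTggatctcg
The Eif2ak2 match began at base 2369 of a 3′UTR of 2575 bases and the Tlr3 match at base 423 of 1496. The let-7 match (CTACCTC) was in none of the 9. Such letters are common: of the genes past the filter with an annotated 3′UTR, 18.1% held the miR-294 match and 10.6% the let-7 match. A match is a description of the sequence and was not tested as a site.

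Total counts per cell ran from 513521 to 3979274, with medians of 1307481 in WT, 1574732 in mock, 1430739 in miR-294 and 1521869 in let-7 cells. Of 182 titled cells, 4 pairs were nearly identical in their counts and each pair was counted as 1 cell, leaving 178. In 2 titles, V6.5_32 (WT) and LET_7I_41 (let-7), the separate runs differed from each other (r = 0.498 and 0.478, where the other cells run more than once gave 0.969 or more), and values without them stand beside the results they move. Dgcr8 itself had a median of 43.3 CPM (a count on the scale of 1000000 counts in total) per WT cell and of 7.88, 22.4 and 7.42 CPM in mock, miR-294 and let-7 cells, a count that does not separate the deleted part from the rest of the gene. All 8 pluripotency markers were counted in each group, with a summed median per cell of 5432 CPM in WT, 5334 CPM in mock, 5607 CPM in miR-294 and 3262 CPM in let-7 cells. Fibroblast markers summed to 5, 64, 119 and 672 counts in the 4 groups. The study used 1 circuit for each condition and no label names separate cultures, so each group was 1 sample: condition and circuit cannot be told apart, cells are not replicates of a condition, and no test between groups was possible. The intervals below are 95% intervals that cover counting error only, of reads without molecular identifiers for levels and ratios and of the number of cells for shares of cells, and none of them is a test between conditions. Levels in CPM are for comparing 1 gene between groups. Genes are compared with each other only by FPKM, which is per transcript length.

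Of the sensors, only Ddx58 was counted in more than a few cells, and its summed level was alike in the 4 groups, while its median cell was lower in WT than in the other 3. RIG-I, its product, binds short double-stranded RNA with a 5′ triphosphate. Summed over the cells of a group, Ddx58 (chromosome 4, 40203773 to 40239828, minus strand) stood at 163 CPM (158 to 169) in WT, 162 CPM (160 to 165) in mock, 172 CPM (170 to 175) in miR-294 and 182 CPM (179 to 185) in let-7 cells. The lowest, median and highest cell were at 0.682, 49.2 and 631 CPM in WT, 0.876, 126 and 1096 CPM in mock, 0, 134 and 487 CPM in miR-294, and 0, 99.4 and 744 CPM in let-7 cells. The spread among the cells of any group was thus far wider than the distance between the groups, and the ranges of all 4 groups overlapped. The log2 ratio of mock to WT was -0.01 (-0.06 to 0.04), that of miR-294 to mock 0.09 and that of let-7 to mock 0.17. None of these had a stable sign, since it changed under 6, 6 and 5 of 10 other ways of processing. For mock over WT these ran from -0.20 to 0.65, the highest with DESeq2 size factors, and leaving out single cells gave -0.13 to 0.47, the highest without the WT cell V6.5_31, which held 34.97% of the WT counts. Ddx58 was the most abundant of the 9 per length, with a mean over cells of 47.7 FPKM in WT, 70.8 FPKM in mock, 55.8 FPKM in miR-294 and 58.5 FPKM in let-7 cells. It was counted in 16 of 16, 60 of 60, 56 of 57 and 42 of 45 cells.

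The other 2 sensors were at or near 0. Tlr3 (chromosome 8, 45395665 to 45411080, minus strand), the endosomal sensor, had no count in any cell of any group, and 3 counts would have been 0.123 CPM in WT, 0.0287 CPM in mock, 0.0302 CPM in miR-294 and 0.0411 CPM in let-7 cells. Its miR-294 match therefore has no measured level beside it. Ifih1 (chromosome 2, 62595798 to 62646255, minus strand), whose product MDA5 binds long double-stranded RNA, had no count in WT, mock or miR-294 cells and 32 counts in 4 let-7 cells, 0.438 CPM (0.300 to 0.619). Of those 32 counts, 27 came from LET_7I_41, in its first run, while its second run held 0.

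Mavs showed the largest difference of the 5 genes: it was lower in let-7 cells than in mock cells. Its product is the adaptor that RIG-I and MDA5 share. Mavs (chromosome 2, 131234063 to 131248025, plus strand) stood at 28.8 CPM (26.7 to 31.03) in WT, 48.6 CPM (47.3 to 49.99) in mock, 50.1 CPM (48.8 to 51.6) in miR-294 and 9.72 CPM (9.02 to 10.47) in let-7 cells. The lowest cell of each group was at 0, while the median and highest cell were at 3.88 and 419 CPM in WT, 7.82 and 958 CPM in mock, 8.31 and 848 CPM in miR-294, and 0 and 262 CPM in let-7 cells. So the typical let-7 cell had no Mavs count, and the groups still overlapped, since 8 of 45 let-7 cells lay above the median mock cell, as did 7 of 16 WT and 29 of 57 miR-294 cells. With every cell thinned to 500000 counts, Mavs was counted in 8 of 16 WT cells, 50% (24.7 to 75.3), 34 of 60 mock cells, 56.7% (43.2 to 69.4), 39 of 57 miR-294 cells, 68.4% (54.8 to 80.1), and 10 of 45 let-7 cells, 22.2% (11.2 to 37.1). Without thinning the numbers of cells were 10, 37, 43 and 14. The lowest share was thus that of the let-7 cells of this circuit.

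The log2 ratio of let-7 to mock was -2.32 (-2.44 to -2.21) for Mavs, 5.002-fold lower, which placed it at percentile 2.08 of the 11178 genes. It was the only one of the 5 genes past 2-fold in this comparison, where 10.3% of all genes past the filter were at least 2-fold lower, 16.7% at least 2-fold higher and 27% either. Leaving out any 1 of the 105 cells kept the ratio past 2-fold. It ran from -3.55 without the let-7 cell LET_7I_46, which held 58.3% of the group's Mavs counts, to -1.86 without the mock cell Mock_48. The study had discarded 5 let-7 cells that showed no lowering of let-7 targets, and what that selection did to Mavs was not tested. The ratio of miR-294 to mock was 0.04 (-0.01 to 0.10), with the other sign under 4 of 10 other ways of processing, and lay between -0.32 and 0.51 as single cells were left out. The ratio of mock to WT was 0.75 (0.64 to 0.87), from 0.29 without Mock_48 to 2.07 without the WT cell V6.5_77, which held 61.4% of the WT counts, so that this cell decides whether Mavs was past 2-fold there. By the authors' FPKM the mean over cells was 13.3 in WT, 19.3 in mock, 20.1 in miR-294 and 3.53 in let-7 cells.

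**Figure D1:**
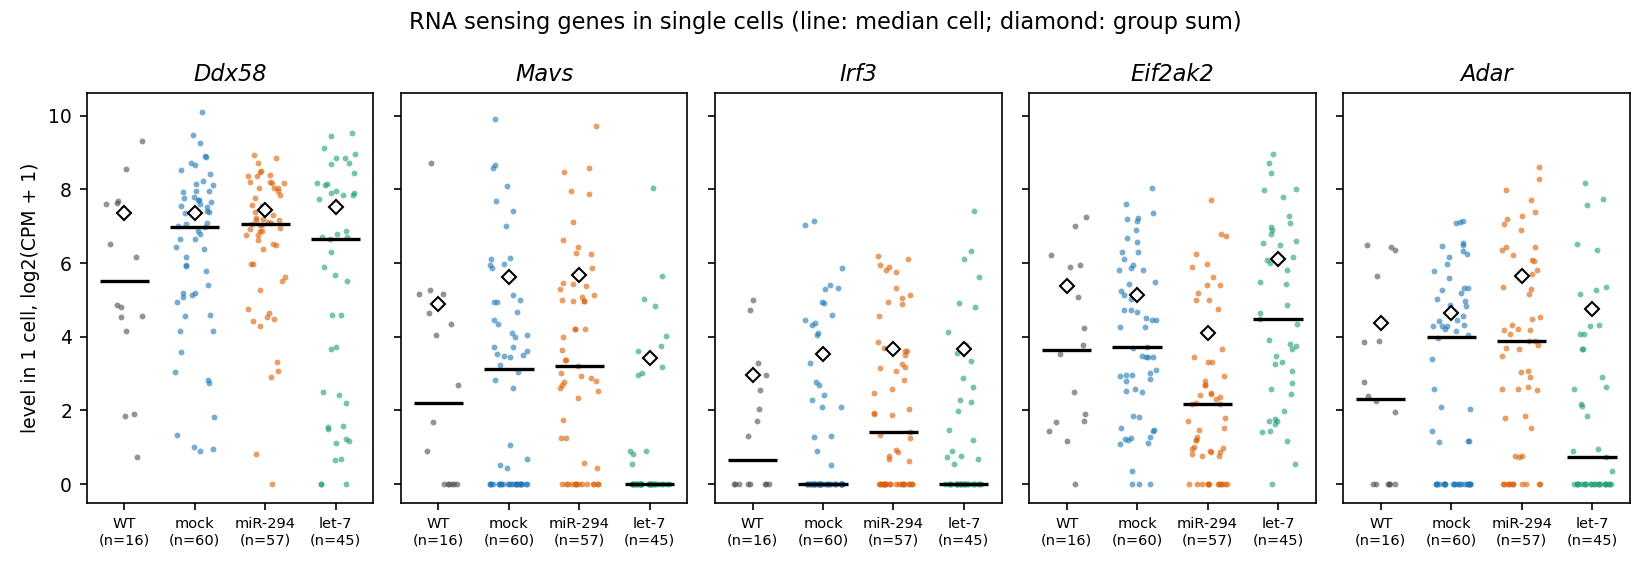
Level of the 5 genes past the filter in each cell, as log2(CPM + 1), for the 16 WT, 60 mock, 57 miR-294 and 45 let-7 cells. Each point is a cell, the line is the median cell and the diamond is the level of the group's summed counts. The ranges of the groups overlap for all 5 genes, and the median let-7 cell is at 0 for Mavs.

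Irf3, the transcription factor that MAVS signalling activates, stood at like summed levels in the 3 Dgcr8-/- groups and at a lower one in WT cells. The median WT cell, though, was above those of mock and let-7 cells and below that of miR-294 cells. Irf3 (chromosome 7, 44997648 to 45002848, plus strand) stood at 6.79 CPM (5.79 to 7.90) in WT, 10.6 CPM (9.94 to 11.2) in mock, 11.8 CPM (11.2 to 12.5) in miR-294 and 11.7 CPM (10.9 to 12.5) in let-7 cells. The median and highest cell were at 0.749 and 31.1 CPM in WT, 0 and 141 CPM in mock, 1.67 and 72.2 CPM in miR-294, and 0 and 170 CPM in let-7 cells, and the lowest cell of each group was at 0. The typical mock or let-7 cell therefore had no Irf3 count. Thinned, it was counted in 8 of 16, 23 of 60, 34 of 57 and 17 of 45 cells, that is in 50% of WT, 38.3% of mock, 59.6% of miR-294 and 37.8% of let-7 cells. The log2 ratio of miR-294 to mock was 0.17 and that of let-7 to mock 0.15, each with the other sign under 2 of 10 other ways of processing, and the second turned to -0.65 without the let-7 cell LET_7I_33, which held 44.2% of that group's counts. The ratio of mock to WT was 0.64 (0.40 to 0.88), and it was 1.6, past 2-fold, without V6.5_32, a title whose runs held 0 and 90.98 Irf3 counts. The 5′ part of Irf3 overlaps Bcl2l12 on the other strand, and reads there cannot be assigned without strand. The same holds where Eif2ak2 overlaps Gm26637 (557 counts over all cells) and where Adar overlaps Chrnb2 (49 counts).

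Eif2ak2 was lower in miR-294 cells and higher in let-7 cells than in mock cells, and near its WT level in mock cells. PKR, its product, is both a sensor of double-stranded RNA and a brake on translation. Eif2ak2 (chromosome 17, 78852564 to 78882573, minus strand) stood at 40.9 CPM (38.4 to 43.5) in WT, 34.4 CPM (33.3 to 35.5) in mock, 16.3 CPM (15.5 to 17.1) in miR-294 and 67.7 CPM (65.8 to 69.6) in let-7 cells. The median and highest cell were at 11.5 and 153 CPM in WT, 12.1 and 261 CPM in mock, 3.503 and 209 CPM in miR-294, and 21.2 and 502 CPM in let-7 cells, with the lowest at 0 in each group. The groups overlapped over most of their ranges: 13 of 57 miR-294 cells and 27 of 45 let-7 cells lay above the median mock cell. Thinned, the gene was counted in 14 of 16 WT, 48 of 60 mock, 39 of 57 miR-294 and 40 of 45 let-7 cells, that is in 80% (67.7 to 89.2) of mock, 68.4% (54.8 to 80.1) of miR-294 and 88.9% (75.9 to 96.3) of let-7 cells. The shares stood in the order of the summed levels in these 3 groups.

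The log2 ratio of miR-294 to mock was -1.08 (-1.16 to -0.99) for Eif2ak2, 2.11-fold lower. The mock cells used here are also those of the let-7 comparison, where the ratio was 0.98 (0.92 to 1.04), 1.97-fold higher and just short of 2-fold. The first stayed past 2-fold in 114 of 117 fits that left out 1 cell. It fell just short, at -0.98, -0.95 and -0.94, without the mock cells Mock_10, Mock_49 and Mock_8. The second ran from 0.77 without LET_7I_12 to 1.11 without Mock_8 and was past 2-fold in 33 of 105 such fits, as well as without LET_7I_41 and V6.5_32 together (1.02). The ratio of mock to WT was -0.25 (-0.35 to -0.15), it changed sign under 6 of 10 other ways of processing, and it was 0.32 without the WT cell V6.5_80, which held 41.8% of the WT counts. The FPKM means were 14.6 in WT, 15.7 in mock, 7.05 in miR-294 and 25.4 in let-7 cells, in the same order as the CPM apart from WT and mock. Over all genes past the filter with a 3′UTR, 22.7% of the 1871 with the miR-294 match and 13.5% of the 8464 without it were at least 2-fold lower in miR-294 than in mock cells. For the let-7 match, 21.4% of the 1094 genes with it and 9.01% of the 9241 without it were at least 2-fold lower in let-7 than in mock cells. What the matches have to do with the levels of single genes was not tested.

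Adar was higher in miR-294 cells than in mock cells when the counts of a group were summed, and not in the median cell. Adar (chromosome 3, 89715022 to 89753446, plus strand) stood at 19.9 CPM (18.2 to 21.8) in WT, 24.1 CPM (23.2 to 25.1) in mock, 48.8 CPM (47.4 to 50.2) in miR-294 and 25.9 CPM (24.8 to 27.1) in let-7 cells. The median and highest cell were at 4.01 and 89.6 CPM in WT, 15.1 and 141 CPM in mock, 13.8 and 387 CPM in miR-294, and 0.659 and 286 CPM in let-7 cells, and again the lowest was at 0 in each group. The median miR-294 cell was thus slightly below the median mock cell although the group's sum was higher, and 27 of 57 miR-294 cells lay above the mock median. The miR-294 cell miRNA294_33 alone held 17.7% of that group's Adar counts and the top 5 cells 55.4%. The log2 ratio of miR-294 to mock was 1.02 (0.95 to 1.09), 2.02-fold higher, at percentile 91.8 of all genes. It was 0.78 without miRNA294_33, it was under 2-fold in 31 of 117 fits that left out 1 cell, and it was under 2-fold also when each cell was given equal weight. The ratio of let-7 to mock was 0.10, with the other sign under 7 of 10 other ways of processing, and turned to -0.44 without LET_7I_41, in which the first run held 3 Adar counts and the second 632. The ratio of mock to WT was 0.28 (0.14 to 0.42). Thinned, Adar was counted in 9 of 16, 38 of 60, 42 of 57 and 21 of 45 cells.

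Read over the 5 genes, none was 2-fold higher or lower in mock than in WT cells, where 28.3% of all genes past the filter were at least 2-fold higher, 12.8% at least 2-fold lower and 41% either. In miR-294 against mock cells 1 of the 5 was higher, Adar, and 1 lower, Eif2ak2, beside 8.28% higher, 15.4% lower and 23.7% either of all genes. The medians of the 5 log2 ratios were 0.28 for mock over WT, 0.09 for miR-294 over mock and 0.15 for let-7 over mock, and those of all genes 0.18, -0.06 and 0.10. With 5 genes such counts are a description only.

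**Figure D2:**
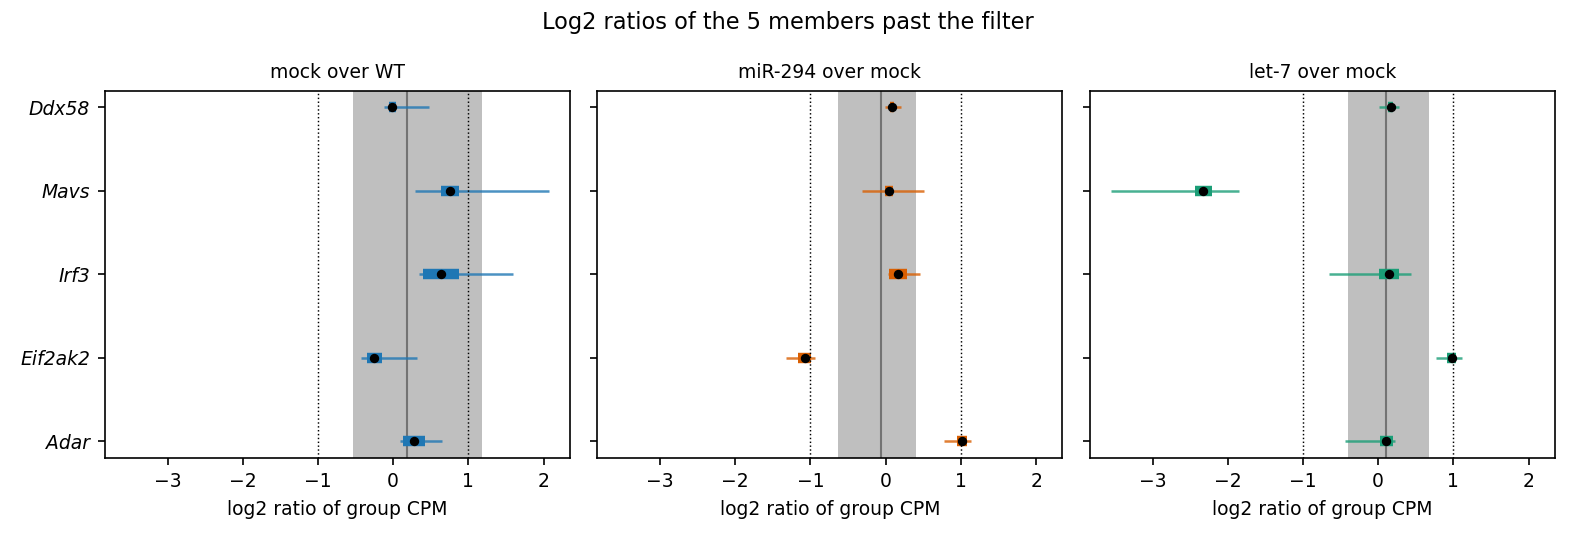
Log2 ratio of the summed CPM of the 5 genes past the filter in the 3 comparisons, which share the mock cells. Thick lines are counting intervals, thin lines the range as each cell is left out in turn, the grey band the range from the 25th to the 75th percentile of all 11178 genes and dotted lines 2-fold. Mavs lies at -2.32 for let-7 over mock, outside the band, and its line stays below -1.

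**Figure D3:**
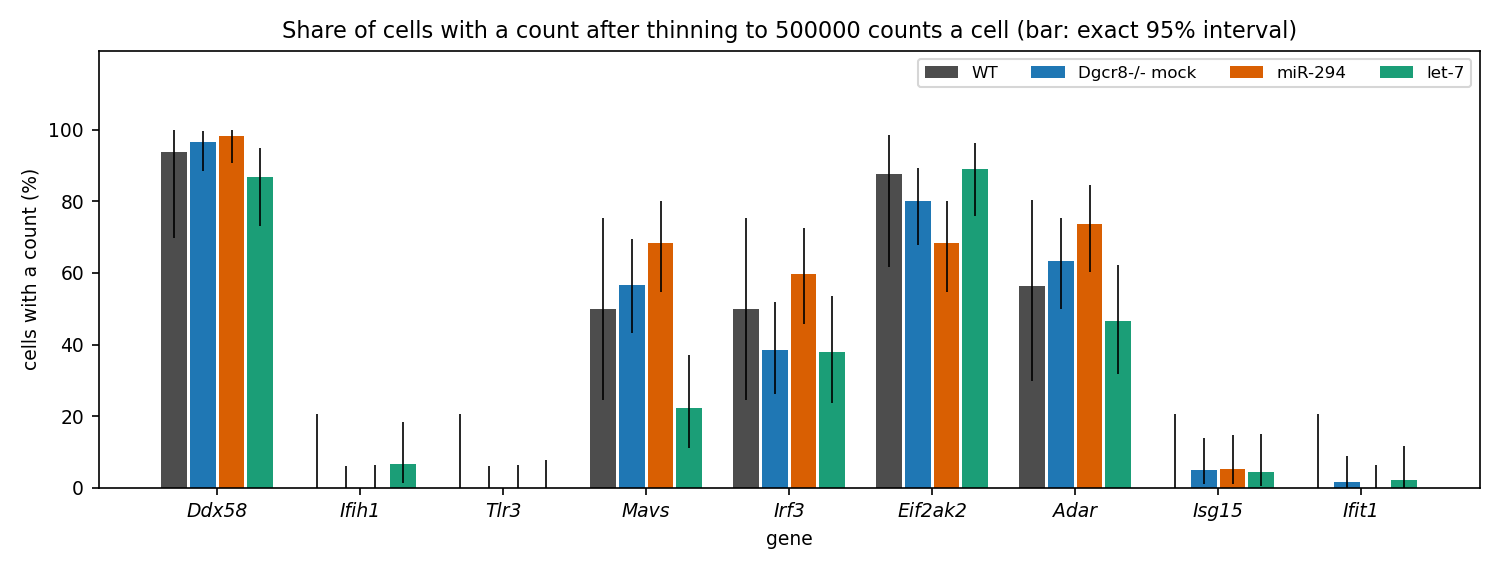
Share of cells in which each of the 9 genes was counted, in percent, after thinning each cell to 500000 counts. Lines are exact 95% intervals for the 16 WT, 60 mock, 57 miR-294 and 45 let-7 cells. Mavs was counted in 22.2% of let-7 cells, the lowest share among the 5 genes past the filter, and the other genes were counted in few cells or none.

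Isg15 and Ifit1, which interferon induces in most cells, were close to 0 in all groups. Isg15 (chromosome 4, 156199424 to 156200818, minus strand), a ubiquitin-like modifier, had no count in WT, 19 counts in 4 mock cells, 20 counts in 4 miR-294 cells and 4 counts in 2 let-7 cells, that is 0.182 CPM in mock, 0.202 CPM in miR-294 and 0.0548 CPM in let-7 cells. Ifit1 (chromosome 19, 34640871 to 34650009, plus strand), which binds RNA with a foreign 5′ end, had counts in only 2 of the 178 cells, 30 in the mock cell Mock_60 and 201 in the let-7 cell LET_7I_5. The group ratios of Ifit1 therefore each rest on single cells. Of the other 3 interferon-induced genes described here that passed the filter, Mock_60 ranked 1 of the 60 mock cells for Ddx58 (1096 CPM), 9 for Adar and 32 for Eif2ak2. LET_7I_5 ranked 2 of the 45 let-7 cells for Eif2ak2 (417 CPM) and 6 for Ddx58, and had no Adar count. Other interferon-induced genes ranked both high and low in the same cells. Ube2l6 ranked 2 of 60 in Mock_60 and 15 of 45 in LET_7I_5, Oas1a 17 and 3, and Xaf1 44 and 34. LET_7I_5 held as well 241 of the 477 counts of Dcn, a fibroblast gene, in the let-7 cells. Of the 8 pluripotency markers it had counts of 6, with Pou5f1 (352 CPM) above and Zfp42 (220 CPM) below the let-7 median, and none of Esrrb or Klf4. The part of a second cell or of free RNA in this title was not tested.

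The promoters of these 2 genes are shown because they alone of the 9 held the letters of an interferon-stimulated response element (GAAA, any 2 bases, GAAA, on either strand, overlaps allowed, in the 250 bases before the start). The sequences are from RefSeq (GRCm38.p6), 5′ to 3′ along the strand of the gene, and the capitals mark the matches.
Isg15, chr4:156200865-156200906, minus strand: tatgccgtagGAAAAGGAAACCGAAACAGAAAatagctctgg
Ifit1, chr19:34640775-34640823, plus strand: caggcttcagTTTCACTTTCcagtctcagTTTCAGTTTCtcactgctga
The Isg15 stretch holds 3 overlapping matches and lies 88 to 47 bases before the start, and the Ifit1 stretch holds 2 matches on the opposite strand, 114 to 66 bases before it. The same letters were in a promoter of 3.46% of 27025 genes. Of the interferon-induced genes listed below, 60 had a promoter sequence, and 24 of these held the letters. The 2 genes with these letters were among the 4 with few or no counts. Of the genes without them in this window, Ddx58, Eif2ak2 and Adar were counted in most cells, and Ifih1 and Tlr3 in few or none.

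Around the 9 genes, the wider pathway was followed through lists that include some of them. The lists are given by the number of genes past the filter and by how many of those were at least 2-fold apart, beside which stand the shares and medians of all genes given above. No interferon gene passed the filter: of 21 ligand genes, Ifnb1 and all the interferon alpha genes had no count in any cell. Ifnl2 had 7 counts in mock and 2 counts in miR-294 cells, and Ifnk 73 counts in 1 let-7 cell, and no other ligand was counted. Of 12 sensors, 3 were higher and 1 lower in mock than in WT, with a median log2 ratio of -0.13, and 2 and 3 after centring on the median gene. Zc3hav1, an antiviral zinc finger protein, stood at 209 CPM in WT and 456 CPM in mock. Zbp1, a sensor of Z-form nucleic acid, had no count in WT and was at 9.24 CPM in mock, 5.41 CPM in miR-294 and 28.3 CPM in let-7 cells, the one sensor more than 2-fold higher in let-7 than in mock cells. The RNA helicase Ddx21 was lower in mock (149 CPM) than in WT (366 CPM). Besides Eif2ak2, Oas1a was the other sensor lower in miR-294 (64.0 CPM) than in mock cells (134 CPM).

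Among the 31 adaptors and kinases past the filter, 10 were higher and 1 lower in mock than in WT (median log2 ratio 0.32), but with the mean of CPM over cells the counts were 11 and 5, with TMM 11 and 4, and after centring on the median gene 10 and 5. The kinase Ripk1 was at 2.13 CPM in WT, 36.8 CPM in mock, 10.53 CPM in miR-294 and 43.8 CPM in let-7 cells, and Ikbkg (NEMO), a subunit of the IKK complex, at 12.9, 42.2, 24.2 and 95.2 CPM in the same order. In miR-294 against mock cells 1 was higher and 6 lower (median -0.24), among them Tank, a TBK1-binding adaptor, at 5.18 CPM against 32.8 CPM. In let-7 against mock cells 7 were higher and 4 lower (median 0.32), and 6 and 6 after centring. Mavs was 1 of those 4, together with Ticam1, the TLR3 adaptor, at 10.4 CPM against 20.7 CPM, and Fadd, at 9.22 CPM against 18.9999 CPM. The NF-kappaB subunit Rela was on the other side, at 80.6 CPM in let-7 and 37.5 CPM in mock cells.

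Adar and Eif2ak2 belong with other proteins that bind double-stranded RNA, and here the 2 mimics stood on opposite sides of mock for 2 miRNA processing genes, Tarbp2 and Dicer1. Drosha, another such gene, did not share their directions and was within 2-fold, at 123 CPM in mock, 103 CPM in miR-294 and 137 CPM in let-7 cells. Tarbp2, the partner of Dicer and an inhibitor of PKR, was at 55.4 CPM in WT, 51.1 CPM in mock, 110 CPM in miR-294 and 4.64 CPM in let-7 cells. Dicer1 was at 30.05, 31.7, 67.9 and 10.4 CPM in the same order. Both were thus more than 2-fold higher in miR-294 and more than 2-fold lower in let-7 than in mock cells, 2 comparisons that share the mock cells. Of the 16 genes of this list past the filter, these 2 and Adar were the 3 higher in miR-294 cells and none was lower (median log2 ratio 0.35). With DESeq2 size factors the counts were 0 higher and 1 lower, and with TMM, the mean of CPM or FPKM 1 and 1, so the higher levels in miR-294 cells depend on the scaling. In let-7 cells the same 2 were lower and 1 was higher, Stau2, at 25.6 CPM against 6.82 CPM (median 0.12). In mock against WT 4 were higher and none lower (median -0.02). Prkra (PACT), an activator of PKR, was 1 of the 4, at 9.43 CPM in mock and 1.92 CPM in WT.

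The partners of PKR and genes of the stress response that follows eIF2 phosphorylation numbered 23, all past the filter. In mock against WT, 4 were higher and 4 lower (median log2 ratio -0.21), but 4 and 1 with the mean of CPM, DESeq2 size factors, TMM, the first run only or thinned counts. In summed counts the lower genes included Eif2s3x, a subunit of eIF2, at 181 CPM in mock and 375 CPM in WT. In miR-294 against mock cells 3 were higher and 4 lower (median 0.22), and 0 and 5 with DESeq2 size factors. Ddit3 (CHOP), a transcription factor of this response, was at 5.56 CPM against 13.6 CPM, and Eif2ak1, another eIF2 kinase, at 23.6 CPM against 49.7 CPM. In let-7 against mock cells 5 were higher and 1 lower (median 0.28). Atf3, a stress-induced transcription factor, was counted in 29 of 45 let-7 cells and 10 of 60 mock cells, at 101.4 CPM against 5.90 CPM, and Ppp1r15b, which directs the phosphatase of eIF2, was at 62.4 CPM against 24.3 CPM.

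Of 17 genes of interferon receptor signalling, 9 were at least 2-fold higher in mock than in WT cells, 8 were within 2-fold and none was lower, with a median log2 ratio of 1.09. With the mean of CPM, DESeq2 size factors, TMM or thinned counts 9 were higher and 1 lower. Irf9 was at 9.89 CPM in WT and 57.9 CPM in mock, and Jak1 at 28.6 and 108 CPM. Against mock, 7 were lower and none higher in miR-294 cells (median -0.92), and 5 were higher and none lower in let-7 cells (median 0.58). In miR-294 cells thinned counts gave 1 higher and 5 lower, and DESeq2 size factors 0 and 9. In let-7 cells 3 were higher after centring on the median gene and 7 with thinned counts, with none lower in either. Irf1 stood at 22.9 CPM in miR-294, 61.3 CPM in mock and 83.1 CPM in let-7 cells. The interferon gamma receptor chain Ifngr2 stood at 3.45 CPM in miR-294, 16.2 CPM in mock and 33.96 CPM in let-7 cells.

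Of 76 interferon-induced genes, which include 6 of the 9 described here, 36 passed the filter. In mock against WT cells 25 were higher, 8 of them with no count in WT, and 1 was lower, Pml, at 66.99 CPM against 168 CPM. The median log2 ratio of the list was 2.80. The 8 genes without a count in WT were counted in 6 to 25 of the 60 mock cells. WT had only 16 of the 178 cells over which the filter took its mean, and these 8 genes could pass only through the other groups. The filter thus favoured their place among the higher genes, and their 8 ratios are bounds. By FPKM, where a gene without a count in a group has no ratio, 19 were higher and none lower. Ube2l6, the enzyme that conjugates ISG15, was at 15.7 CPM in WT and 110 CPM in mock, and B2m, the light chain of class I histocompatibility molecules, at 16.7 and 56.1 CPM. Against mock, 2 were higher and 13 lower in miR-294 cells (median -0.75), and 10 were higher and 4 lower in let-7 cells (median 0.30). Some of those 10 passed the filter only through the let-7 cells, so the filter favoured their place among the higher genes. Cmpk2 had 1113 counts in only 3 let-7 cells and 3 counts in 1 mock cell. Gbp2 had 4108 counts in 25 let-7 cells and 216 counts in 10 mock cells. The 2 higher in miR-294 cells, Adar and Parp14, were no longer 2-fold higher with size factors of DESeq2 or TMM. Without the titles V6.5_32 and LET_7I_41 the counts of higher and lower genes were 25 and 0 in mock over WT, 2 and 13 in miR-294 over mock, and 11 and 4 in let-7 over mock. H2-D1, a class I heavy chain, was at 6.38 CPM in WT, 58.95 CPM in mock, 34.9 CPM in miR-294 and 184 CPM in let-7 cells, and reads of the near-identical class I genes could be shared among them, as could those of Oas1a and Oas1g. So Ddx58, Eif2ak2 and Adar, at log2 ratios of -0.01, -0.25 and 0.28 in mock over WT, were below the median of the list they belong to.

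Summed within each cell, the 76 genes gave a lowest, median and highest cell of 408, 889 and 1924 CPM in WT, 804, 1616 and 3649 CPM in mock, 600, 1137 and 3377 CPM in miR-294, and 674, 2271 and 4460 CPM in let-7 cells. Genes with many counts, such as Ddx58, weigh most in such a sum, and only 36 of the 76 passed the filter. Of the single cells, 1 of 16 WT, 8 of 57 miR-294 and 38 of 45 let-7 cells lay above the median mock cell, and the ranges of all 4 groups overlapped. Cd68, a macrophage gene that other cells also express, moved alongside: it was at 17.9 CPM in WT, 84.7 CPM in mock, 42.8 CPM in miR-294 and 118 CPM in let-7 cells. Csf1r, another of the 8 macrophage markers, did not: it was at 0.368, 1.01, 2.21 and 0.205 CPM in the same order. Of the other 6, Cd14 and Itgam had few counts and 4 had none in any group. The part of such cells, and that of the circuit, in these levels was not tested.

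**Figure D4:**
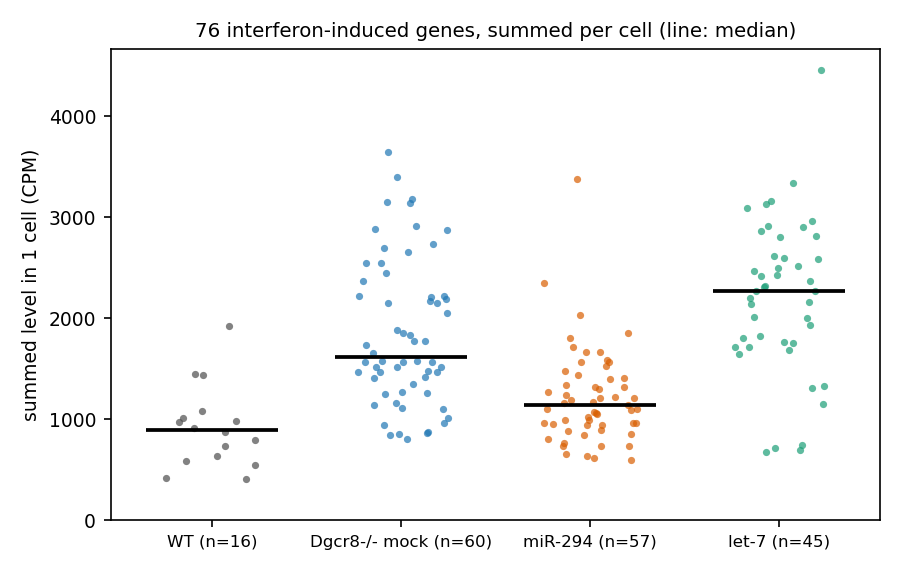
Summed level of 76 interferon-induced genes in each cell, in CPM, for the 4 groups, with the median cell as a line. The medians are 889 in WT, 1616 in mock, 1137 in miR-294 and 2271 in let-7 cells, and the ranges overlap.

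**Figure D5:**
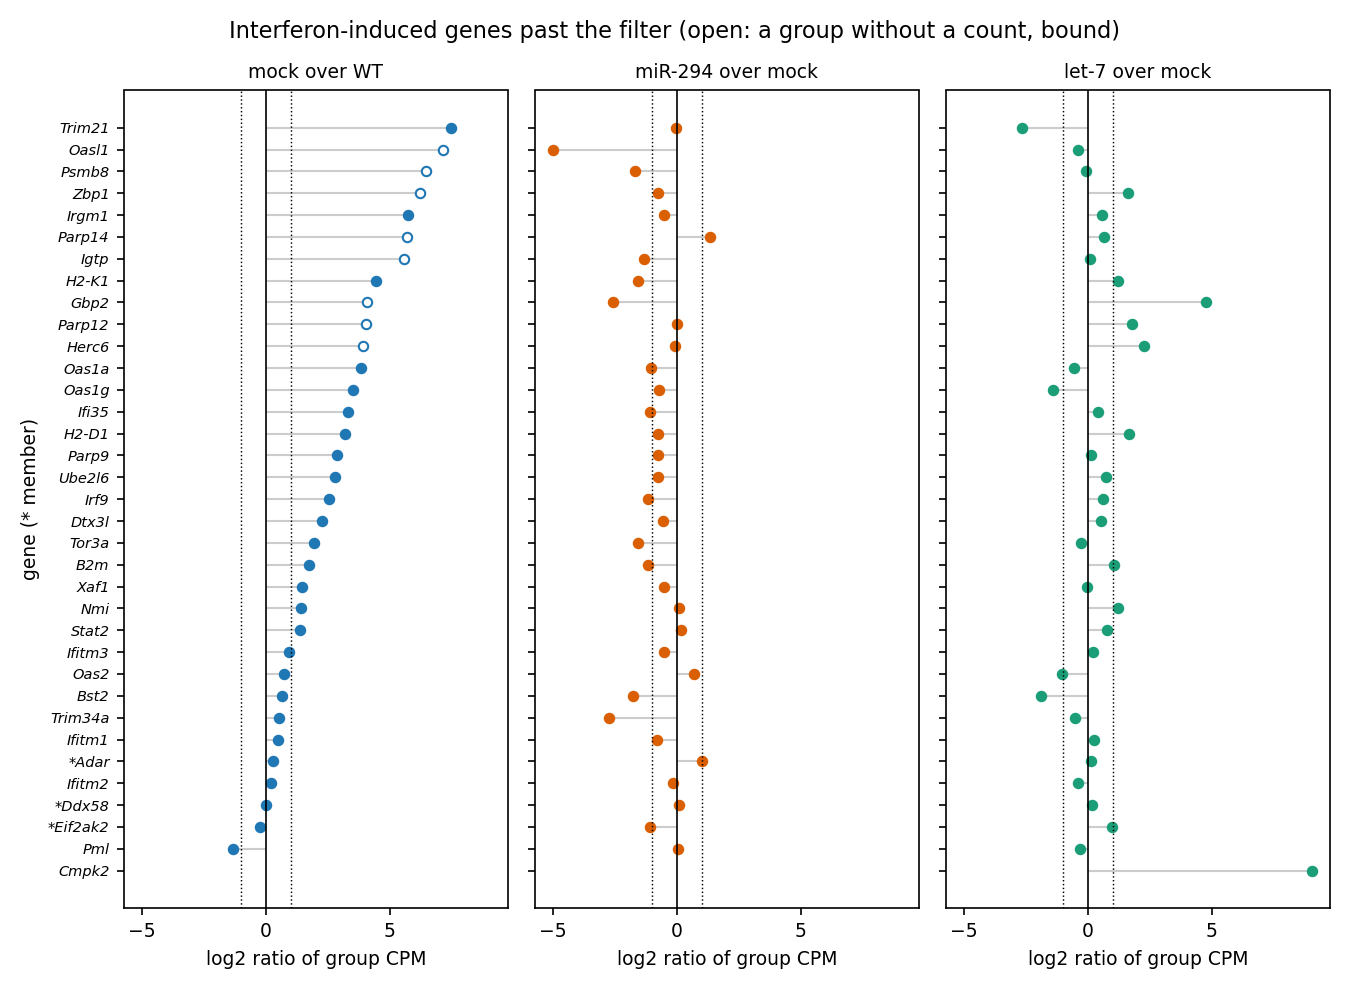
Log2 ratio of the summed CPM for 35 of the 36 interferon-induced genes past the filter, 1 panel for each comparison. Open points are bounds where a group had no count, an asterisk marks Ddx58, Eif2ak2 and Adar, and Cmpk2, at or under 3 counts in WT, mock and miR-294 cells, has a ratio in the let-7 panel alone. In the panel of mock over WT 24 of the genes shown lie at least 2-fold higher and 1 at least 2-fold lower.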

How the data were processed

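Single cells had been prepared with the Fluidigm C1 protocol and Nextera XT and sequenced on Illumina HiSeq. According to the submitters' processing notes, the authors used RSEM 1.2.19, and for each run deposited 2 values of every gene: an expected count with no normalization, and FPKM, scaled to transcript length and depth. Reads had been assigned to Gencode M4 (GRCm38), and the authors had removed cells of low depth or diversity and cells without lowering of the targets of their mimic. The libraries do not mark strand. The study checked captures under a microscope, and no doublet caller was run. Here the counts of repeated runs were added up within each cell and rounded, and 4 pairs of near-identical cells were each counted once. The deposited FPKM was used as an alternative and for levels between genes.

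Counts were summed over the cells of a group and divided by the group's total (CPM). Intervals were exact Poisson for levels, exact conditional binomial for ratios and Clopper-Pearson for shares of cells, at 95%. A gene was tallied where its mean count per cell was at least 5 and its ratio at least 2-fold. That mean is over all cells, so a gene can pass through the group in which it is high. Where a group had no count, 3 counts over the group were put in its place and the ratio is a bound. For shares, each cell was thinned to 500000 counts. No model was fitted between groups, since each group was 1 sample. The scripts were tested on simulated data.

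The 9 genes and the lists were chosen with earlier results of these data known. All 9 genes are described, and from each list the genes named are among the 3 with the highest mean CPM of the 2 groups past 2-fold in each comparison. Ifnb1, Ifnl2, Ifnk, Dcn, Csf1r, Cd14, Itgam, Zfp42, Klf4, Xaf1, Tmem173, Cmpk2, Gbp2 and Drosha were singled out after their values were seen. Alternatives were the mean of CPM over cells, size factors of DESeq2 1.42.0 and TMM factors of edgeR 4.0.16 (R 4.3.3), centring on the median gene, no filter or a mean count of 20, a threshold of 1.5-fold, the first run only, thinned counts, FPKM, the miRNA294_ titles only, near-identical cells each counted, and each cell left out in turn. Python 3.11.15, numpy 2.4.6, pandas 2.3.3, scipy 1.17.1 and matplotlib 3.10.9 were used. Gene positions, 3′UTRs and overlaps were from Gencode M21 (GRCm38), and miRNA and promoter sequences from RefSeq. A gene of the lists enters their counts and sums and is not reported here by itself.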

Additional observations from a re-analysis of the deposited data

How the results depend on the processing

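Among the 5 genes past the filter, no 2-fold difference changed direction under any alternative. For the lists and for all genes, the numbers higher and lower were compared, not the direction of each gene. Mavs stayed at least 2-fold lower in let-7 than in mock cells, and Eif2ak2 at least 2-fold lower in miR-294 than in mock cells, under all 10 alternatives that rescale, recount or subset the data. The cause of the moves that follow was not tested. Of the 5 genes (of all 9 with no filter), the number past 2-fold in mock over WT went from 0 to 1 with the mean of CPM over cells, DESeq2 size factors, TMM, no filter, the first run only, and without the 2 cells whose runs disagree (an alternative chosen after seeing the data), and to 2 at 1.5-fold, and lay between 0 and 1 as each cell was left out. For miR-294 over mock it went from 2 to 1 with the mean of CPM, DESeq2 size factors, TMM, the first run only, thinned counts and FPKM, each time by the loss of Adar, to 3 with no filter (Ifit1), and lay between 1 and 2 as each cell was left out. For let-7 over mock it went from 1 to 2 with DESeq2 size factors, TMM, 1.5-fold and without the 2 cells, each time by the gain of Eif2ak2, and to 4 with no filter, and lay between 1 and 2 as each cell was left out. Over all genes, mock over WT, miR-294 over mock and let-7 over mock gave 4587, 2646 and 3018 genes, with no filter 8926, 7801 and 8536, and with a mean count of 20 2593, 1237 and 1514, and the last 2 comparisons gave 4943 and 5266 at 1.5-fold. In the pathway lists the counts were 62, 35 and 38, with 58 and 67 for miR-294 and let-7 over mock without a filter, 41 and 23 for mock over WT and let-7 over mock with a mean count of 20, and 64 and 65 for miR-294 and let-7 over mock at 1.5-fold. The scaling moved the split of directions in miR-294 over mock: 35% of the genes past 2-fold were higher, and 21.8% with DESeq2 size factors, and in the pathway lists 20% were higher, against 0% with DESeq2 size factors, 8.11% with TMM and 10.53% with the mean of CPM. Centring on the median gene took the share higher in the lists from 88.7% to 76.5% for mock over WT and from 73.7% to 63.2% for let-7 over mock. DESeq2 size factors moved the median of all genes from 0.18 to 0.37 in mock over WT and from -0.06 to -0.28 in miR-294 over mock. Unthinned, Ddx58 was counted in 100% of WT and of mock cells, and Eif2ak2 in 95% of mock and 97.8% of let-7 cells. No paired analysis was possible because the replicate numbers of the labels name separate cells of each group and pair none of them. Genes near 5 counts per cell are limited by depth, and 3 counts over a group were 0.123 CPM in WT, the group with the fewest cells, and under 0.0411 CPM or at it elsewhere.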

Other observations

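Genes of DNA sensing were looked at beside those of RNA sensing. Of the 12 past the filter, 6 were at least 2-fold higher and none lower in mock than in WT cells (median log2 ratio 0.80). Of all genes, 28.3% were higher and 12.8% lower there (median 0.18). The 6 became 5 with the mean of CPM, thinned counts or centring, and 4 with FPKM or the first run only. None was 2-fold apart between miR-294 and mock cells (median 0.17), where 23.7% of all genes were. With the first run only or thinned counts 1 was higher there. In let-7 against mock cells 1 was higher, beside 16.7% of all genes. It was Trex1, the exonuclease that degrades cytoplasmic DNA, at 16.01 CPM against 4.31 CPM. Tmem173 (STING), the adaptor of this pathway, had no count in WT cells and was at 7.82 CPM in mock, 9.15 CPM in miR-294 and 7.24 CPM in let-7 cells.

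Across the 178 cells, with each gene centred within its group, the levels of the 5 genes past the filter had Pearson's r with each other between -0.11 and 0.11 on log2(CPM + 1). The genes most like each were Psmd6 for Ddx58 (r = 0.30), Ndufaf6 for Mavs (0.28), Ago3 for Irf3 (0.34), Fam98b for Eif2ak2 (0.34) and Slc10a7 for Adar (0.30). Cells share their circuit and library preparation, and correlations of this size in sparse counts are a description only.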
